A study of Arabidopsis thaliana with 24 samples.

Results

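The genes described here are 8 enzymes and helper proteins of cuticular wax synthesis in Arabidopsis thaliana, taken by their identifiers from 33557 genes listed in each of 6 tables. They are the ketoacyl-CoA synthases KCS1 (AT1G01120), KCS5 (AT1G25450) and KCS6 (AT1G68530), the ECERIFERUM genes CER1 (AT1G02205), CER2 (AT4G24510), CER3 (AT5G57800) and CER4 (AT4G33790), and the midchain alkane hydroxylase MAH1 (AT1G57750). They were listed by gene name, but with earlier results of these data known. Messenger RNA was sequenced from separately collected cotyledons, which are seed leaves, and hypocotyls, the stem of the seedling. The 24 samples form 8 groups of 3: dark-grown pifq cotyledons and hypocotyls, and wild type cotyledons and hypocotyls in continued darkness, after 1 h of light and after 6 h of light. All seedlings were 4 days old. Seeds of every group had first received 3 h of white light, at 70 µmol m-2 s-1, and then a 5 min pulse of far-red light, at 2 µmol m-2 s-1. The later light treatment was white light of the same intensity. The mutant line pifq is known to carry mutations in the genes of 4 phytochrome-interacting factors, PIF1, PIF3, PIF4 and PIF5, which act in darkness, and the parent is named Col in the mutant tables.

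The aerial epidermis is covered by a cuticle made of cutin and waxes. Wax precursors are very-long-chain fatty acids, which an elongase complex on the endoplasmic reticulum builds, with a KCS enzyme setting the chain length at each cycle. In the alkane branch CER1 and CER3 act together to turn acyl-CoA into alkanes, and MAH1, a cytochrome P450, oxidises alkanes to secondary alcohols and ketones. In the alcohol branch the reductase CER4 makes primary alcohols. CER2 is a protein of the BAHD acyltransferase family that lets the KCS6 elongase make the longest chains.

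The bases upstream of CER1, CER4 and MAH1 are shown because these were the members with the widest differences between pifq and wild type. Each run is the 300 bases before the gene start annotated by RefSeq on the TAIR10.1 assembly, written 5′ to 3′ on the gene's own strand. They were searched on both strands for the G-box, CACGTG, and for the PBE-box, CACATG or CATGTG, the letters that PIF proteins are known to bind. Capitals mark a PBE-box match.
CER1, chr1:418116-418415, plus strand: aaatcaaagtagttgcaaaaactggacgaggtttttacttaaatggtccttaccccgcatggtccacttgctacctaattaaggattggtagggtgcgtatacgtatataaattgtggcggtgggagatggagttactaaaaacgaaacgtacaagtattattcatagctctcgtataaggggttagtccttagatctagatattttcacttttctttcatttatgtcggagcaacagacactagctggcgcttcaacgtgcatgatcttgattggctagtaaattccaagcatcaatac
CER4, chr4:16207957-16208256, minus strand: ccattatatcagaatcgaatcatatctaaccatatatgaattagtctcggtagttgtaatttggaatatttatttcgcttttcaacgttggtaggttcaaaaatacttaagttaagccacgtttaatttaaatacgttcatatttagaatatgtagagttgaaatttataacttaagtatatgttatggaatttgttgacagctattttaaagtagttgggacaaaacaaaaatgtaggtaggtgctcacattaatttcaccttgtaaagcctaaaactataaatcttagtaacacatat
MAH1, chr1:21385710-21386009, minus strand: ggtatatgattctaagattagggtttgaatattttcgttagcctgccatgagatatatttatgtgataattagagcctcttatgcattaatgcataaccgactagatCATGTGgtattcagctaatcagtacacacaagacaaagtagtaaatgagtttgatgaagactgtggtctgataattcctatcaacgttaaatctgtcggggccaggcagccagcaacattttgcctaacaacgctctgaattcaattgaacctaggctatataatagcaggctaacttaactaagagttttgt
No G-box stood in the window of any of the 8 members, where 7.09% of 27443 promoters of the same length hold one. A PBE-box stood in 2 of the 8 windows, those of MAH1 and CER2, where 13.1% of all promoters hold one. Its first base lay 193 bases before the start of MAH1 and 52 bases before that of CER2, whose window overlaps the neighbouring gene AT4G24500. These matches describe letters in a window and not binding.

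In the files, on the TAIR10 build, KCS1 lies at chr1:57269-59167, KCS5 at chr1:8938479-8940387, KCS6 at chr1:25712588-25714807 and CER1 at chr1:418748-422438. CER3 lies at chr5:23420209-23424052, CER4 at chr4:16204157-16207947 and MAH1 at chr1:21383981-21385709. The files give CER2 the locus chr4:12660749-12667199, which it shares with ATR1 (AT4G24520), a gene on the opposite strand that overlaps it by 96 bases in RefSeq. Reads of CER2 and ATR1 may therefore have been split between them, and CER2 values are uncertain to that extent. Over their coding sequences KCS5 and KCS6 were 81.3% identical along 1475 aligned bases, with no identical run longer than 23 bases, and the other members' closest genes reached at most 73.1%.

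The authors deposited 1 value per group, as FPKM, a level of fragments scaled to gene length and library size. Neither single-sample values nor depths are part of the sources used here, so each error below is a standard error (SE) recovered from the authors' own test statistic. A gene was called where its q-value in the authors' deposited table was under 0.05. Checked against markers, the cotyledon groups held root and endodermis markers at a summed 0.964 to 1.54 FPKM over 9 genes, with 1 to 6 of them listed at 0. The hypocotyl groups held them at 17.5 to 44.4 FPKM with none at 0. RBCS1A, a Rubisco small subunit, was listed at 0 in all 4 cotyledon groups with the status HIDATA in the authors' deposited table, which the Cufflinks tools give to a locus with too many fragments. The values of CER4 and MAH1 listed at 0 carry the status NOTEST, given where alignments are too few for a test. Such a 0 is given below as listed and not as absence. In the mutant tables PIF3 fell to 0.623 FPKM in pifq cotyledons, against 64.7 FPKM in wild type cotyledons, and to 2.16 FPKM in pifq hypocotyls, against 37.6 FPKM in wild type hypocotyls. PIF5 fell to 8.66 FPKM in pifq hypocotyls, against 21.5 FPKM in wild type hypocotyls, and stood at 13.8 FPKM in pifq and 15.8 FPKM in wild type cotyledons, without a call. PIF4 transcripts rose in both pifq organs, to 45.0 FPKM in cotyledons, against 15.4 FPKM in wild type, and to 44.9 FPKM in hypocotyls, against 19.3 FPKM in wild type. PIF1 stood at 30.5 FPKM in pifq and 36.9 FPKM in wild type cotyledons and at 55.4 FPKM in pifq and 35.4 FPKM in wild type hypocotyls, without a call.

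In dark-grown wild type seedlings 6 of the 8 members stood at 20 FPKM or more in both organs, the other two being CER4 and MAH1. KCS6, the main elongase of stem and leaf wax, had the highest FPKM of the 8 members in 7 of the 8 groups. It stood at 1524, 1926 and 1190 FPKM in hypocotyls in the dark, at 1 h and at 6 h, and at 85.9, 160 and 86.8 FPKM in cotyledons. In the hypocotyl at 1 h this placed it 49th among all genes.

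KCS1, an elongase of broad chain-length range, followed at 565, 675 and 251 FPKM in hypocotyls over the same series and at 25.7, 74.8 and 36.1 FPKM in cotyledons. KCS5, the closest relative of KCS6, was much lower in hypocotyls, at 54.0, 60.6 and 8.72 FPKM. In cotyledons it stood at 22.9, 33.6 and 55.6 FPKM. KCS5 was therefore the only member whose FPKM at 6 h was lower in hypocotyls than in cotyledons, among the 6 members with values in both organs.

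CER1, the alkane-forming partner, stood at 370, 520 and 90.0 FPKM in hypocotyls in the dark, at 1 h and at 6 h, and at 79.8, 141 and 64.5 FPKM in cotyledons. CER3, with which CER1 acts, stood at 134, 222 and 163 FPKM in hypocotyls and at 50.0, 105 and 133 FPKM in cotyledons. CER2 stood at 240, 259 and 96.3 FPKM in hypocotyls and at 51.9, 106 and 70.9 FPKM in cotyledons. All 3 genes were thus well expressed in every wild type group of both organs. CER4 and MAH1 were at the other end. CER4 stood at 1.97, 1.48 and 0.0938 FPKM in wild type hypocotyls, and in cotyledons at 0.00848 FPKM in the dark and listed at 0 at both light times. MAH1 stood at 0.0168 FPKM in dark hypocotyls and was listed at 0 in the other 5 wild type groups.

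**Figure D1:**
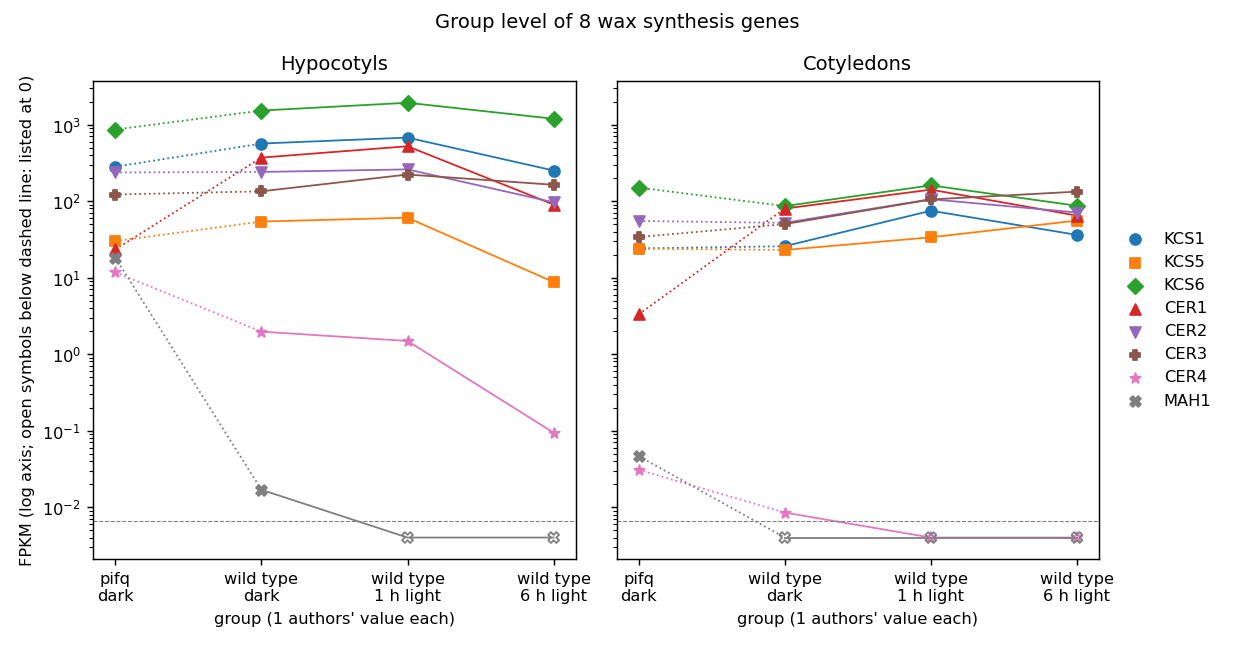
FPKM of the 8 members (log axis) in hypocotyls and cotyledons of pifq and wild type seedlings, with 1 deposited value per group, no error bars, dotted lines from pifq to the dark wild type of the light tables, and open symbols for values listed at 0. KCS6 is the highest member in 7 of 8 groups, and CER4 and MAH1 reach 11.7 and 18.2 FPKM in pifq hypocotyls.

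Set side by side across tables that the authors scaled apart, the dark wild type level of hypocotyls over cotyledons was 22.0 for KCS1, 17.7 for KCS6, 4.64 for CER1, 4.63 for CER2, 2.68 for CER3 and 2.35 for KCS5. Over 15575 genes with at least 1 FPKM in both organs the median of this ratio was 1.06, and 3.76% of genes had a ratio of 10 or more. No test was made of levels between organs. At 6 h the ratios were lower, at 6.94 for KCS1, 13.7 for KCS6, 1.39 for CER1, 1.36 for CER2, 1.23 for CER3 and 0.157 for KCS5.

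In cotyledons, 1 h of light raised most of the expressed wax genes. KCS1 rose the most, by a log2 fold of 1.54 ± 0.37 (SE), followed by CER3 at 1.07 ± 0.38, KCS6 at 0.90 ± 0.42, CER1 at 0.82 ± 0.43 and KCS5 at 0.55 ± 0.38. Thus 5 of the 6 tested members rose, where 10.6% of 18998 tested genes rose and 8.45% fell, and the members' median log2 fold was 0.96 against 0.03 over all tested genes. CER2 was 106 FPKM at 1 h and 51.9 FPKM in the dark, a log2 fold of 1.03 ± 0.87 that was not called. CER4 and MAH1 were too low to be tested. In the authors' deposited table the q-values were 0.000332 for KCS1 and CER3, 0.00452 for KCS6, 0.00978 for CER1, 0.0441 for KCS5 and 0.168 for CER2. With a p taken from the normal distribution of the same statistic only KCS1 was still called. KCS5 lost its call in each of 5 alternatives, which gave adjusted p of 0.0441 to 0.820 and included a stricter threshold of 0.01.

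After 6 h of light in cotyledons fewer members were called. CER3 and KCS5 rose, by log2 folds of 1.41 ± 0.37 and 1.28 ± 0.36 against the dark, both with a q-value of 0.000332 in the authors' deposited table. That makes 2 of 6 tested members, where 24% of 19057 tested genes rose and 19.8% fell, and so a share near that of all genes. The other members were not called: KCS1 at 0.49 ± 0.34, CER2 at 0.45 ± 0.68, KCS6 at 0.02 ± 0.36 and CER1 at -0.31 ± 0.36. The members' median was 0.47 against 0.03 over all tested genes. KCS1 was the closest to a call, with q = 0.0625 in the authors' deposited table, and it passed under 2 of the alternatives, with adjusted p of 0.0473 and 0.0449 in a range of 0.0449 to 0.376. Between the light times, 6 h over 1 h, KCS1 and CER1 stood at 0.483 and 0.457 of their 1 h level, and KCS5 and CER3 stood at 1.65 and 1.27 times it. The light times share their dark samples and were not tested against each other.

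In hypocotyls at 1 h of light few wax genes were called. CER3 was the 1 member of 7 tested that rose, by a log2 fold of 0.73 ± 0.40 (q = 0.00885 in the authors' deposited table), where 10% of 19809 tested genes rose and 5.14% fell. The other log2 folds were 0.49 ± 0.43 for CER1, 0.34 ± 0.52 for KCS6, 0.26 ± 0.45 for KCS1, 0.17 ± 0.38 for KCS5, 0.11 ± 0.53 for CER2 and -0.41 ± 0.61 for CER4. The 95% intervals were wide, for example -0.63 to 1.15 for KCS1. The members' median was 0.26 against 0.04 over all tested genes. The call of CER3 was lost with the normal p from the statistic, at an adjusted p of 0.573 in a range of 0.00885 to 0.661 over 5 alternatives.

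After 6 h of light in hypocotyls most of the wax genes fell. KCS5 fell to 8.72 FPKM at 6 h, against 54.0 FPKM in the dark, a log2 fold of -2.63 ± 0.40. CER1 fell to 90.0 FPKM, against 370 FPKM in the dark, a log2 fold of -2.04 ± 0.39. CER2 fell by 1.32 ± 0.54, KCS1 by 1.17 ± 0.43 and CER4, at low level, by 4.39 ± 1.07 on the log2 scale. These were 5 of 7 tested members, where 22% of 19871 tested genes fell and 17.3% rose, and the members' median log2 fold was -1.32 against -0.13 over all tested genes. KCS6 stood at 1190 FPKM at 6 h and 1524 FPKM in the dark (log2 fold -0.36 ± 0.47), and CER3 at 163 FPKM at 6 h and 134 FPKM in the dark (0.28 ± 0.39), neither of them called. In the authors' deposited table the q-values were 0.000364 for KCS1, KCS5 and CER1, 0.000691 for CER4, 0.000993 for CER2, 0.395 for KCS6 and 0.409 for CER3.

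Relative to the median shift of all genes and with a normal p, KCS1 and CER2 lost their calls at 6 h in hypocotyls (adjusted p of 0.0677 and 0.113, the highest over 5 alternatives, the lowest being 0.000233 and 0.000633), while KCS5, CER1 and CER4 did not. ATR1, which shares the CER2 locus, stood at 63.1 FPKM at 6 h and 107 FPKM in the dark in hypocotyls and was not called. In cotyledons ATR1 fell to 25.2 FPKM at 6 h, against 112 FPKM in the dark (log2 fold -2.15 ± 0.54), so that the uncertainty of CER2 also touches its cotyledon value at 6 h and its difference between the organs. The fall of CER4 on the scale of log2(FPKM + 1) was -1.44. In these bulk samples fewer cells of a type and less RNA per cell cannot be told apart. Of 4 epidermis markers, ATML1 (log2 fold -0.79) and PDF1 (162 FPKM at 6 h, against 563 FPKM in the dark) fell in the same hypocotyls. PDF2 (log2 fold -0.12) and FDH (234 FPKM at 6 h, against 336 FPKM in the dark) were not called. The summed level of the 4 was 436 FPKM at 6 h, against 956 FPKM in the dark. In cotyledons at 6 h the sum of the 4 markers was 1832 FPKM, against 634 FPKM in the dark, with PDF1 and FDH called higher. FDH is another name of KCS10 and is counted again among the other KCS family genes below. At 1 h the sum of the 4 markers was 977 FPKM in cotyledons, with PDF1 and FDH again called higher. It was 1001 FPKM in hypocotyls, with none of the 4 called, none having an unadjusted p under 0.05. Of 6 stomatal lineage markers 5 rose in cotyledons at 6 h, to a sum of 100 FPKM over the 6, against 38.8 FPKM in the dark. In hypocotyls at 1 h 4 of 8 tested root and endodermis markers rose, IRT1, PHT1-1, GPAT5 and ASFT, and the sum over 9 was 44.4 FPKM, against 26.3 FPKM in the dark. At 6 h in hypocotyls 1 of 7 rose and 1 fell, at a sum of 36.8 FPKM. Of 5 greening markers 4 rose in hypocotyls at 6 h and PORA fell (log2 fold -4.42). Their sum was 2298 FPKM, against 255 FPKM in the dark. In cotyledons at 6 h 4 were tested, of which LHCB1.1 and LHCB2.1 rose and PORA and PORB fell. The part of these cells and of greening in the wax gene changes was not tested.

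**Figure D2:**
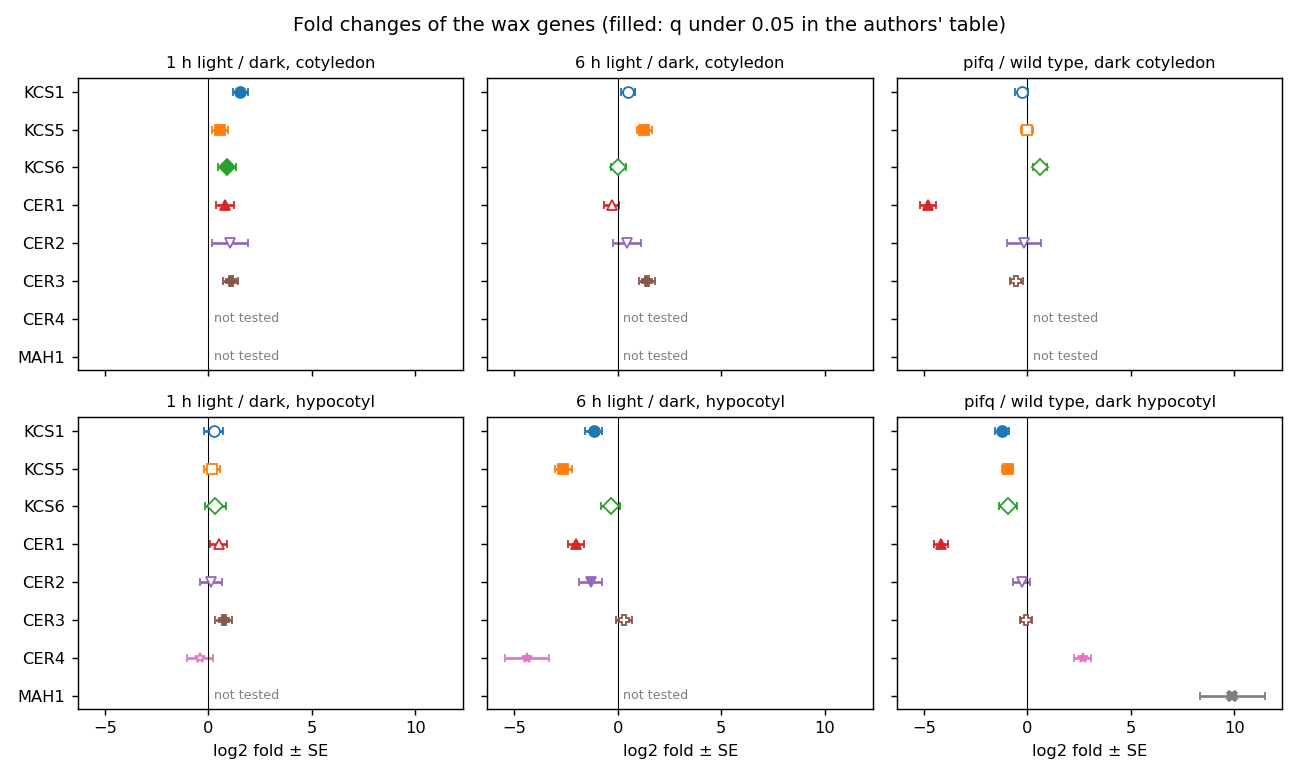
Log2 fold of each tested member in the 6 comparisons, light over dark or pifq over wild type, with error bars of 1 SE recovered from the authors' statistic, and filled points where the authors' q-value was under 0.05. Most members lie above 0 in cotyledons at 1 h and below 0 in hypocotyls at 6 h, and CER1 lies at -4.81 and -4.17 in the pifq comparisons.

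The responses of the organs were tested against each other as the cotyledon log2 fold minus the hypocotyl log2 fold, adjusted over all genes tested in both tables. It is a normal test on the recovered SEs, since 1 value per group allows no exact test. At 6 h they differed for KCS5 by 3.91 ± 0.53 (SE, adjusted p of 5.68e-11), the gene rising in cotyledons and falling in hypocotyls. They differed for CER1 by 1.73 ± 0.53 (adjusted p of 0.0135), for which only the fall in hypocotyls was called, and for KCS1 by 1.66 ± 0.55 (adjusted p of 0.0241). These were 3 of 6 members, where 12.6% of 18153 genes differed. For CER2 the difference was 1.77 ± 0.87 (adjusted p of 0.191) and for CER3 1.13 ± 0.54 (adjusted p of 0.181), and both passed when the SE was taken from the authors' p-value, with adjusted p of 0.00459 and 0.0304, the lowest over 3 alternatives whose highest were 0.249 and 0.277. Over all genes 5046 differed with the SE from the authors' p-value, against 2289 in the main test. KCS6 gave 0.37 ± 0.59, with a 95% interval of -0.79 to 1.53.

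At 1 h no member's difference between the organs passed after adjustment over 18089 genes, of which 0.459% passed. KCS1 had the largest difference, 1.28 ± 0.58, with an unadjusted p of 0.0279 and an adjusted p of 0.851, and it was the 1 member of 6 with an unadjusted p under 0.05. The rise of 5 members in cotyledons and of 1 in hypocotyls at 1 h is therefore not shown to be a difference between the organs. CER4 and MAH1 could not be compared at either time.

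**Figure D3:**
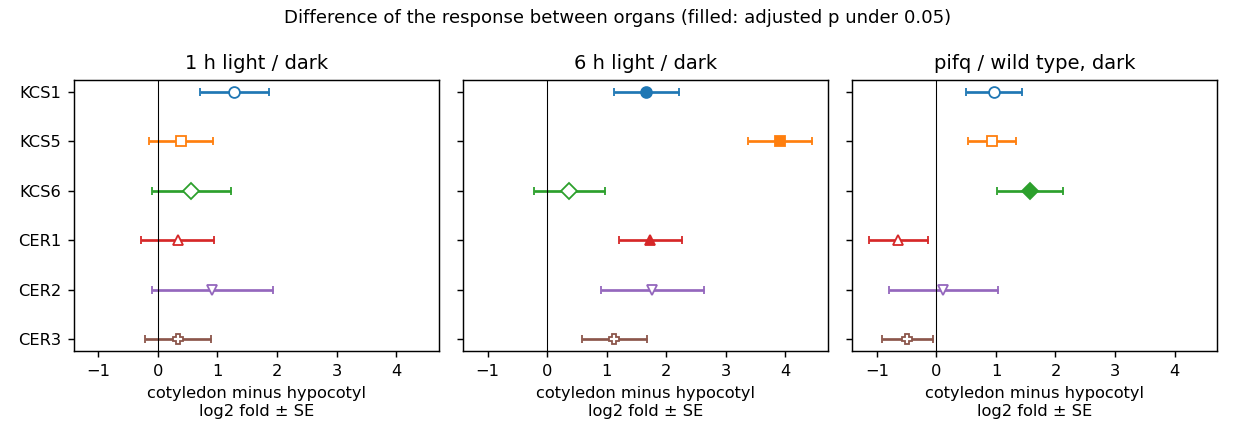
Cotyledon minus hypocotyl log2 fold of 6 members at 1 h, at 6 h and in pifq, with error bars of 1 SE and filled points where the adjusted p over all genes was under 0.05. KCS5 at 6 h stands apart at 3.91, and none of the 1 h points passes.

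In dark-grown pifq seedlings CER1 transcripts were far lower in both organs. CER1 fell to 3.30 FPKM in pifq cotyledons, against 92.8 FPKM in wild type cotyledons, which is 28.1-fold lower (log2 fold -4.81 ± 0.38). It fell to 23.3 FPKM in pifq hypocotyls, against 422 FPKM in wild type hypocotyls, which is 18.1-fold lower (-4.17 ± 0.32). The authors' deposited table lists both q-values as 0. Its alkane partner CER3 did not pass in either organ, at 33.8 FPKM in pifq and 49.4 FPKM in wild type cotyledons (log2 fold -0.55 ± 0.32) and at 122 FPKM in pifq and 127 FPKM in wild type hypocotyls (-0.06 ± 0.29). The cotyledon minus hypocotyl difference of the CER1 folds was -0.64 ± 0.50 and did not pass (adjusted p of 0.551, 95% interval -1.62 to 0.34).

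In cotyledons CER1 was the 1 member of 6 tested that was called in pifq, as lower, where 5.66% of 19516 tested genes fell and 4.79% rose. KCS6 stood at 150 FPKM in pifq and 97.6 FPKM in wild type (log2 fold 0.62 ± 0.35), KCS1 at 24.0 FPKM in pifq and 28.9 FPKM in wild type (-0.27 ± 0.32), KCS5 at 23.9 FPKM in pifq and 24.1 FPKM in wild type (-0.02 ± 0.31) and CER2 at 54.9 FPKM in pifq and 61.5 FPKM in wild type (-0.16 ± 0.82). Their q-values in the authors' deposited table lay between 0.334 and 0.994, with CER3 at 0.356. The members' median log2 fold was -0.22 against -0.03 over all tested genes. CER4 stood at 0.0308 FPKM in pifq and 0.00867 FPKM in wild type and MAH1 at 0.0464 FPKM in pifq and listed at 0 in wild type, and neither was tested.

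In pifq hypocotyls KCS1 and KCS5 fell with CER1, while CER4 and MAH1 rose. KCS1 fell to 281 FPKM in pifq, against 659 FPKM in wild type (log2 fold -1.23 ± 0.34), and KCS5 fell to 30.0 FPKM, against 57.9 FPKM (-0.95 ± 0.27). With CER1 these were 3 of 8 members lower, where 14.5% of 20441 tested genes fell. CER4 rose to 11.7 FPKM in pifq, against 1.84 FPKM in wild type (2.67 ± 0.40), and MAH1 rose to 18.2 FPKM, against 0.0191 FPKM (9.90 ± 1.58). These 2 of 8 members rose, where 13% of tested genes rose. The members' median log2 fold was -0.61 against -0.03 over all tested genes.

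MAH1 was tested in this comparison alone, since it was near 0 or listed at 0 in every other group, and the size of its fold rests on a wild type level of 0.0191 FPKM. On the scale of log2(FPKM + 1) its fold was 4.24 and on that of log2(FPKM + 0.1) it was 7.27. KCS6 stood at 861 FPKM in pifq and 1667 FPKM in wild type hypocotyls (-0.95 ± 0.44) and was not called, nor was CER2 at 237 FPKM in pifq and 286 FPKM in wild type (-0.28 ± 0.41). In the authors' deposited table the q-values were 0.00236 for KCS1, 0.00257 for KCS5, 5.2e-10 for CER4, 9.72e-09 for MAH1, 0.0884 for KCS6, 0.676 for CER2 and 0.918 for CER3. CER4 thus rose in pifq hypocotyls and fell in wild type hypocotyls at 6 h of light, to 0.0938 FPKM, against 1.97 FPKM in the dark.

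Markers of cell types and of greening moved in the same pifq hypocotyls. Of 5 greening markers LHCB1.1, LHCB2.1, RBCS1A and PORB rose and PORA fell, with a median log2 fold of 3.11 over the 5. Their summed level was 3352 FPKM in pifq hypocotyls, against 255 FPKM in the dark wild type hypocotyls of the light tables. Of 7 tested root and endodermis markers CYP86A1 fell and none rose, and the sum over 9 was 17.5 FPKM in pifq hypocotyls, against 26.3 FPKM in the same wild type. The epidermis markers ATML1 (85.1 FPKM in pifq, against 33.6 FPKM in wild type) and PDF2 (49.1 FPKM in pifq, against 25.9 FPKM in wild type) rose, 2 of 4. The other 2, PDF1 (log2 fold -0.07) and FDH (-0.13), were not called. The summed level of the 4 was 1020 FPKM in pifq, against 956 FPKM in the dark wild type of the light tables, which were scaled apart. Of 6 stomatal lineage markers 4 were tested and SPCH, FAMA and TMM rose. Their summed level over the 6 was 4.77 FPKM in pifq hypocotyls, against 0.852 FPKM in the dark wild type hypocotyls of the light tables, where MUTE was listed at 0. In pifq cotyledons this sum was 80.0 FPKM, against 38.8 FPKM in dark wild type cotyledons, and CER4 and MAH1 were at or under 0.0464 FPKM there. The part of these cells and of greening in the rise of CER4 and MAH1 and the fall of CER1, KCS1 and KCS5 was not tested.

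The effect of pifq differed between the organs for KCS6, by 1.57 ± 0.56 in cotyledons minus hypocotyls (adjusted p of 0.0445), although KCS6 was called in neither organ alone. This was 1 of 6 members, where 11.4% of 18582 genes differed. Over 3 alternatives the adjusted p was 0.0435 to 0.0499. The differences of KCS1 at 0.96 ± 0.47 (adjusted p of 0.200) and KCS5 at 0.93 ± 0.41 (adjusted p of 0.135) did not pass, nor did CER3 at -0.49 ± 0.43 and CER2 at 0.11 ± 0.91. The fall of KCS1 and KCS5 in pifq hypocotyls is therefore not shown to differ from their values in pifq cotyledons.

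The proportions of pathway transcripts were also set side by side. Within 1 group the ratio of CER1 to CER3 levels needs no scaling between tables. In hypocotyls it was 2.76 in the dark, 2.34 at 1 h and 0.551 at 6 h, and in cotyledons it was 1.60, 1.34 and 0.486. In pifq it was 0.192 in hypocotyls, against 3.33 in the wild type of the same table, and 0.0976 in cotyledons, against 1.88. CER1 thus stood above CER3 in the dark and at 1 h in wild type and below it at 6 h and in pifq, in both organs.

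Among the 3 elongases, KCS6 made up 71.1% of their summed FPKM in dark hypocotyls, 72.3% at 1 h and 82.1% at 6 h. In cotyledons it made up 63.9%, 59.7% and 48.6%. The share of KCS5 was 2.52%, 2.28% and 0.602% in hypocotyls and 17.0%, 12.5% and 31.1% in cotyledons over the same series. From dark to 6 h the share of KCS6 was higher and that of KCS5 lower in hypocotyls, and the reverse held in cotyledons. At 1 h in cotyledons both shares were below those in the dark. The ratio of KCS6 to KCS5 levels at 6 h was 136 in hypocotyls, against 28.2 in the dark, and 1.56 in cotyledons, against 3.75 in the dark. In pifq hypocotyls KCS6 made up 73.5%, against 69.9% in wild type, and in pifq cotyledons 75.8%, against 64.8%. These shares are descriptions of group values without a test.

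**Figure D4:**
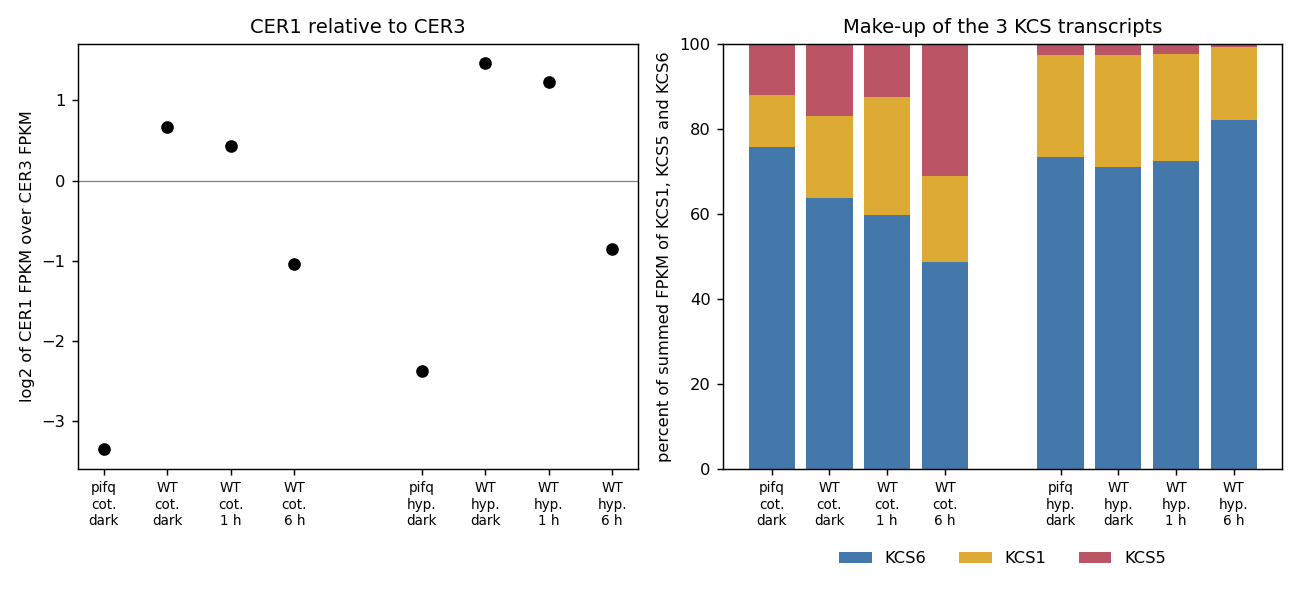
Log2 ratio of CER1 to CER3 FPKM and percent of the summed KCS1, KCS5 and KCS6 FPKM held by each, in pifq and in wild type in the dark, at 1 h and at 6 h of light, for both organs. The log2 ratio lies above 0 in wild type in the dark and at 1 h and below 0 in pifq and at 6 h, where the ratio is 0.486 in cotyledons and 0.551 in hypocotyls.

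The rest of the pathway was followed in 6 lists of 65 further genes. Their counts are read beside the shares of all tested genes: at 1 h 10.6% rose and 8.45% fell in cotyledons, and 10% rose and 5.14% fell in hypocotyls. At 6 h 24% rose and 19.8% fell in cotyledons, and 17.3% rose and 22% fell in hypocotyls. In pifq 4.79% rose and 5.66% fell in cotyledons, and 13% rose and 14.5% fell in hypocotyls. Of the other KCS family genes, 7 of 14 tested rose in cotyledons at 6 h and the other 7 were not called. In hypocotyls at 6 h 6 of 12 fell and the other 6 were not called. KCS9, an elongase of very-long-chain fatty acids, rose in cotyledons to 74.2 FPKM at 6 h, against 11.9 FPKM in the dark (log2 fold 2.64 ± 0.37). KCS12 fell in hypocotyls to 0.916 FPKM at 6 h, against 43.1 FPKM in the dark (-5.55 ± 0.51), and KCS20 to 154 FPKM, against 399 FPKM (-1.37 ± 0.39). At 1 h 4 of 13 rose and 2 fell in cotyledons, with KCS3 at 1.30 ± 0.39 and KCS8 at -1.09 ± 0.35, and 2 of 12 rose and 2 fell in hypocotyls.

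In pifq the other KCS genes were divided in both organs, with 4 of 13 higher and 1 lower in cotyledons and 3 of 12 higher and 3 lower in hypocotyls. KCS19 rose to 312 FPKM in pifq hypocotyls, against 63.2 FPKM in wild type (2.30 ± 0.29), and KCS8 to 133 FPKM, against 28.8 FPKM (2.20 ± 0.27). KCS12 fell to 5.74 FPKM in pifq hypocotyls, against 49.2 FPKM (-3.10 ± 0.29). KCS2, which shares its locus with another gene in the files and is uncertain, fell in both organs, at log2 folds of -2.41 ± 0.34 in hypocotyls and -3.27 ± 1.04 in cotyledons. KCS12 rose at low level in pifq cotyledons, to 2.82 FPKM, against 0.501 FPKM in wild type cotyledons.

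The elongase core and its partners are the enzymes that work with a KCS. Of 9 genes, all tested, 3 rose in cotyledons at 1 h and 2 at 6 h, 2 rose in hypocotyls at 1 h, and at 6 h 2 rose and 3 fell. In pifq 3 rose in cotyledons, and 2 rose and 1 fell in hypocotyls. The counts of genes higher at 6 h in cotyledons, higher at 6 h in hypocotyls and called in pifq hypocotyls were near the shares of all genes, 24% higher, 17.3% higher, and 13% higher with 14.5% lower. LACS2, a long-chain acyl-CoA synthetase of the cuticle, rose in cotyledons at 1 h (49.0 FPKM at 1 h, against 20.7 FPKM in the dark) and at 6 h (44.7 FPKM), in hypocotyls at 1 h (18.5 FPKM at 1 h, against 8.21 FPKM in the dark) and in pifq hypocotyls (23.0 FPKM in pifq, against 8.27 FPKM in wild type). KCR1, the ketoacyl reductase of the elongase, rose in cotyledons at 1 h (113 FPKM at 1 h, against 72.8 FPKM in the dark) and fell in hypocotyls at 6 h (68.0 FPKM at 6 h, against 113 FPKM in the dark). The 2 genes that rose in hypocotyls at 6 h were ACC1, to 109 FPKM, against 47.7 FPKM in the dark, and LACS1, to 11.1 FPKM, against 6.62 FPKM. CER26, a relative of CER2, rose in pifq cotyledons (22.9 FPKM in pifq, against 3.92 FPKM in wild type) and fell in pifq hypocotyls (2.41 FPKM in pifq, against 6.39 FPKM in wild type), a difference of 3.95 ± 0.53 between the organs (adjusted p of 3.38e-11).

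Among 5 genes of other wax products, FAR1, a fatty acyl reductase that makes primary alcohols for suberin, fell in cotyledons to 42.7 FPKM at 6 h, against 360 FPKM in the dark. It fell in hypocotyls to 11.1 FPKM at 6 h, against 142 FPKM in the dark. WSD1, the wax ester synthase, rose in hypocotyls to 44.8 FPKM at 1 h, against 19.5 FPKM in the dark, and fell to 2.77 FPKM at 6 h. In pifq hypocotyls FAR1 fell to 58.1 FPKM, against 152 FPKM in wild type, and WSD1 to 7.44 FPKM, against 20.3 FPKM in wild type, 2 of 4 tested. These were the 2 genes of the list called at 6 h in hypocotyls, of 4 tested, and FAR1 was the 1 called in cotyledons, of 2 tested, at each light time.

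Of 6 cuticle export genes, all tested in cotyledons, 3 rose at 1 h and 5 at 6 h, and in hypocotyls 2 of 5 fell at 6 h. None of 5 was called in hypocotyls at 1 h, with 1 at an unadjusted p under 0.05, and none of 6 in pifq cotyledons, with 0 at that p. The normal p called none in either. LTPG2 and LTPG1, lipid transfer proteins anchored at the cell surface, rose in cotyledons to 1084 and 1597 FPKM at 6 h, against 154 and 466 FPKM in the dark. The same 2 genes fell in hypocotyls to 346 and 658 FPKM at 6 h, against 726 and 1409 FPKM in the dark. ABCG12, a transporter of wax across the plasma membrane, rose in cotyledons at 1 h, to 81.7 FPKM (log2 fold 1.26 ± 0.40), and fell in pifq hypocotyls (143 FPKM in pifq, against 269 FPKM in wild type).

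Cutin synthesis genes also had opposite counts in the organs at 6 h, with 7 of 12 higher in cotyledons and 8 of 13 lower in hypocotyls, beside 2 higher. In pifq 1 rose and 1 fell of 12 in cotyledons, and 4 rose and 1 fell of 13 in hypocotyls, with CYP77A6, a fatty acid hydroxylase of cutin synthesis, at 2.57 FPKM in pifq, against 0.0826 FPKM in wild type. All tested genes had 4.79% higher and 5.66% lower in pifq cotyledons, near the cutin counts there, and 13% higher and 14.5% lower in pifq hypocotyls. GPAT8, an acyltransferase of cutin monomers, rose in cotyledons to 54.0 FPKM at 6 h, against 11.4 FPKM in the dark, and CYP86A4, a fatty acid hydroxylase, fell in hypocotyls to 3.23 FPKM, against 43.4 FPKM. The difference between the organs at 6 h was 3.93 ± 0.52 for GPAT8 (adjusted p of 1.60e-11) and 4.37 ± 0.69 for CYP86A4 (adjusted p of 3.14e-08). LTL1, a lipase-like protein, rose at 6 h in both organs (to 245 FPKM, against 59.3 FPKM in dark cotyledons, and to 58.1 FPKM, against 8.34 FPKM in dark hypocotyls) and in pifq hypocotyls (119 FPKM in pifq, against 8.32 FPKM in wild type). The lists were read beside 24% of all tested genes higher in cotyledons and 22% lower in hypocotyls at 6 h.

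**Figure D5:**
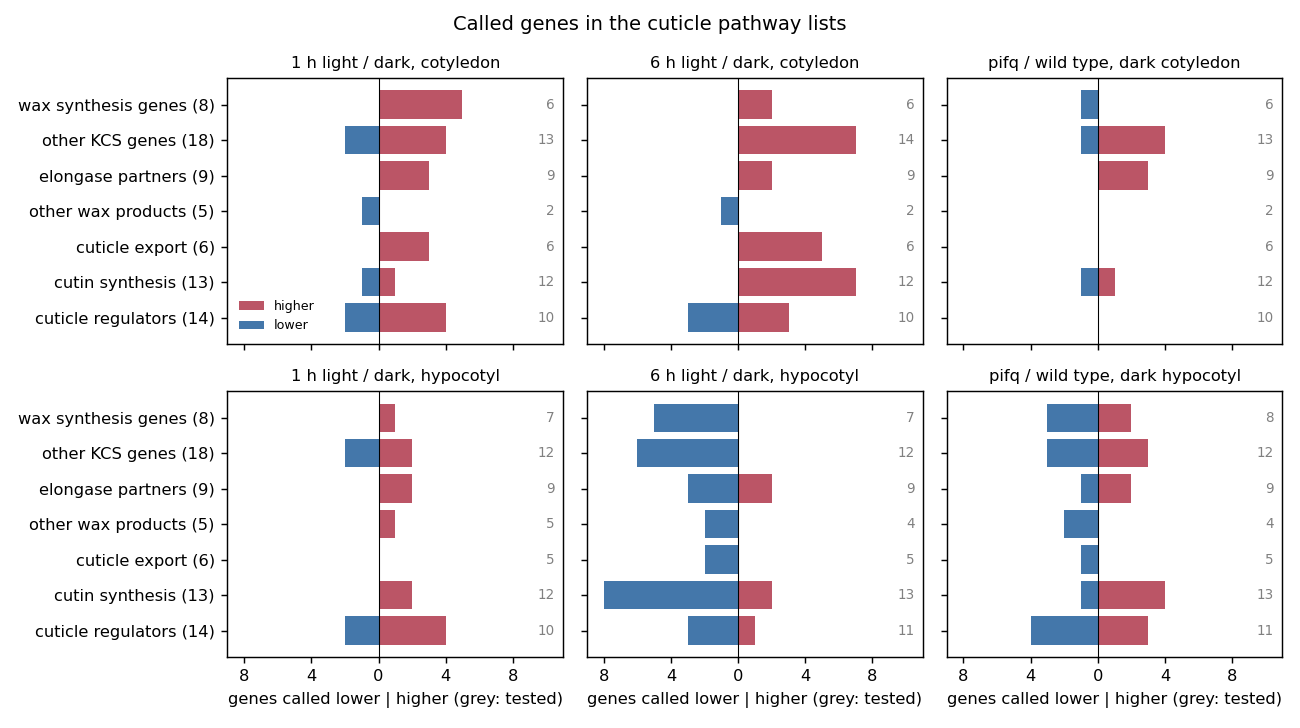
Number of genes called higher (bars to the right) and lower (bars to the left) by the authors' q-value under 0.05 in the 6 comparisons, for the 8 members and 6 pathway lists, with the number tested in grey. At 6 h 7 cutin genes are higher in cotyledons and 8 are lower in hypocotyls.

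Of 14 regulators of cuticle genes, 10 or 11 were tested in each comparison, and 5 were called in at least 4 of the 6. In cotyledons 4 rose and 2 fell at 1 h, and 3 rose and 3 fell of 10 at 6 h, near the 24% of all tested genes that rose and the 19.8% that fell. In hypocotyls 4 rose and 2 fell at 1 h, 1 rose and 3 fell at 6 h, and 3 rose and 4 fell in pifq. In pifq cotyledons none of 10 was called, with 3 at an unadjusted p under 0.05 and none called with the normal p. MYB96, an activator of wax genes, rose at 1 h in cotyledons (70.0 FPKM at 1 h, against 31.2 FPKM in the dark) and hypocotyls (234 FPKM at 1 h, against 98.7 FPKM in the dark). It fell in cotyledons at 6 h (9.12 FPKM) and in pifq hypocotyls (62.6 FPKM in pifq, against 114 FPKM in wild type). DEWAX, a repressor of wax genes in darkness, fell at 1 h in cotyledons (11.6 FPKM at 1 h, against 46.0 FPKM in the dark) and hypocotyls (34.3 FPKM at 1 h, against 87.4 FPKM in the dark). At 6 h it rose in cotyledons (73.6 FPKM) and was still lower in hypocotyls (39.8 FPKM), and it fell in pifq hypocotyls (44.0 FPKM in pifq, against 107 FPKM in wild type).

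MYB16, a regulator of cuticle formation in epidermal cells, rose in cotyledons at 1 h (45.4 FPKM at 1 h, against 15.8 FPKM in the dark) and 6 h (26.9 FPKM), in hypocotyls at 1 h (10.3 FPKM at 1 h, against 2.86 FPKM in the dark) and in pifq hypocotyls (20.8 FPKM in pifq, against 3.44 FPKM in wild type). Its relative MYB106, which shares its locus with another gene and is uncertain, also rose in pifq hypocotyls (3.51 FPKM in pifq, against 0.165 FPKM in wild type). SPL9, which is known to act on CER1, rose in 4 comparisons at low levels, with 3.11 FPKM in hypocotyls at 6 h, against 0.458 FPKM in the dark. WRI4, an activator of wax genes in stems that also shares its locus with another gene and is uncertain, was lower in all 4 light comparisons, for example at 7.26 FPKM in hypocotyls at 6 h, against 36.8 FPKM in the dark.

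The members' profiles differed among themselves. Pearson's r of log2(FPKM + 1) over the 8 groups, given as a description, was 0.97 between KCS1 and KCS6 and 0.87 between CER4 and MAH1, and 0.03 between KCS5 and KCS6. These points share their libraries and fall into 2 organs that differ in level. Within cotyledon groups alone r was 0.44 for KCS1 and KCS6, -0.29 for KCS5 and KCS6 and 0.96 for CER4 and MAH1. Within hypocotyl groups alone it was 0.87, 0.53 and 0.91. MAH1 stood at or under 0.0464 FPKM outside pifq hypocotyls. CER4 stood at or under 0.0308 FPKM in the cotyledon groups, so that the r of 0.96 rests on values near 0. In hypocotyls CER4 stood at 11.7 FPKM in pifq and at or under 1.97 FPKM in wild type, so that the r of 0.91 rests mainly on pifq. Against the mean profile of the 8 members, r was 0.98 for CER2, 0.96 for KCS1, 0.88 for KCS6, 0.81 for CER3, 0.74 for CER4, 0.64 for CER1, 0.39 for MAH1 and 0.37 for KCS5. Each member is itself part of that mean, which raises its r. Among 16385 genes, those with the highest r to that mean were AT5G48900 at 0.992, ECA4 at 0.982, AT2G34355 at 0.979, AT3G59370 at 0.975 and PP2-A15 at 0.975. None of these 5 was among the closest by Spearman's rho or over the 6 wild type groups alone.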

How the data were processed

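Per the labels' protocols, total RNA of 24 samples, 3 biological repeats in each of 8 groups, was sequenced on an Illumina instrument. Per the submitters' processing notes, TopHat, Cufflinks and the TAIR10 build were used, with no versions named. The authors deposited 6 tables of 33557 genes with 1 value per group, whose unit the headers do not name and which was taken as FPKM from the column layout. Each deposited table also holds a test statistic, a score of no fixed range, with the authors' p-value, q-value and test status. Depth and single-sample values are unknown here, and the spread between samples could not be computed.

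Log2 folds were computed from the group values, and each SE as that log2 fold divided by the deposited statistic, without sign, so it describes the authors' model. The statistic has the opposite sign in the mutant tables, so each direction was taken from the FPKM of its groups. For the same statistic the light tables give smaller p-values: the normal score that matches a deposited p-value was, at the median gene, 1.68 to 1.71 times the statistic in the 4 light tables and 1 times in both mutant tables. Calls use q under 0.05 with status OK, 40 of the members' 48 tests having been run. The wild type columns of the mutant tables differ from the dark columns of the light tables by a median log2 of 0.09 in cotyledons and 0.08 in hypocotyls, and by -0.08 to 0.25 for members. Differences between organs were divided by their combined SE (squares summed, then the root), with a normal two-sided p and Benjamini-Hochberg adjustment over all genes tested in both tables.

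The 8 members and all lists were chosen with earlier results of these data known. Named besides the members were up to 2 called genes per list, comparison and direction with the largest folds and at least 1 FPKM, regulators called in at least 4 comparisons, the 5 genes with the most similar profile (at least 5 FPKM in some group), the PIF genes and markers. Coding alignments and promoters came from RefSeq TAIR10.1. The alternatives were another threshold, adjustment or p, centred folds, a minimum level, pseudocounts and, for likeness, other measures. The test of differences between organs was tried on simulated folds with known differences. Their noise was drawn from the recovered SEs, so the trial does not check those SEs. Python 3.11.15, numpy 2.4.6, pandas 2.3.3 and scipy 1.17.1 were used.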

Additional observations from a re-analysis of the deposited data

Results flagged for a closer look

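The light response at 6 h differed between the organs, by a test of the difference itself, for 3 of 6 members, where 12.6% of 18153 genes differed. The cotyledon minus hypocotyl log2 fold was 3.91 for KCS5, 1.73 for CER1 and 1.66 for KCS1. In the dark-grown mutant, pifq over wild type, it was 1.57 for KCS6 (adjusted p of 0.0445 by the same test), which was called in neither organ alone. That is 1 of 6 members, near the 11.4% of 18582 genes that differed.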

How the results depend on the processing

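No paired analysis was possible because each deposited table holds 1 value per group, and for the same reason no replicate could be left out. No result reversed its direction, but only centred folds and other wild type columns could have changed a sign. With a normal p from the statistic, and with folds centred on the median tested gene, 1 and 1 members were higher in cotyledons at 1 h, against 5 by the authors' q-value. In hypocotyls at 1 h 0 and 0 were higher, against 1, and with centred folds 3 were lower at 6 h, against 5. With the SE taken from the authors' p-value 5 members differed between the organs at 6 h, against 3. Over all genes 5046 differed with that SE, against 2289. Centred folds were tested with the normal p as well, and that p comes from a score smaller, by the ratio of 1.68 to 1.71, than the one behind the authors' p-value in the light tables. Of 200 recomputed tests of members, called or not, 182 kept their outcome, 16 lost a call (a threshold of 0.01 is among the alternatives) and 2 gained one. Only 19 of the 40 tests run were called by the authors' q-value, and only these could lose a call. Of 134 fold sizes under other pseudocounts, centring or wild type columns 4 moved by more than 1 SE, those of CER4 and MAH1 with pseudocounts, whose low levels also limit what their folds can show. Of 216 list counts 62 moved by more than 1.5 times. With the normal p at 6 h, 4 other KCS genes were higher in cotyledons, against 7, and 3 lower in hypocotyls, against 6. For cutin genes 4 were higher in cotyledons, against 7, and 4 lower in hypocotyls, against 8, and 2 export genes were higher in cotyledons, against 5. Over all genes in cotyledons at 1 h 715 were higher, against 2023. At 6 h 2437 of all genes were higher in cotyledons, against 4575, and 2014 were lower in hypocotyls, against 4365. Of the 5 genes most like the members, 0 were shared with the 5 by Spearman's rho, 2 with a pseudocount of 0.1 FPKM and 0 over the 6 wild type groups.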
